A study of Mus musculus with 3 samples.

Results

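Cytosolic ribosomal proteins form the protein part of the ribosome outside the mitochondria, and every cell needs them to make protein. Their genes are short, highly transcribed in growing tissue, and produce mRNAs whose first bases are often a run of pyrimidines through which translation is regulated together. Tbx4 is a T-box transcription factor made in the hindlimb, where it is needed for outgrowth of the bud. Hoxc10 belongs to the Hox proteins of the posterior body. Binding of both was profiled by ChIP-seq, in which DNA bound by a protein is recovered with an antibody from fixed chromatin and sequenced.

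The ribosomal protein genes were chosen by symbol alone, as protein-coding mouse genes named Rpl or Rps with a number and at most a short suffix, together with Rpsa, Rplp0, Rplp1 and Rplp2. The rule found 84 genes among 21887 protein-coding genes on the primary chromosomes, 52 of the large and 32 of the small subunit. The chromatin came from the hindlimbs of wild type CD1 embryos at stage e11.5. The labels give 1 Tbx4 library made with a homemade antibody (1695a), 1 Hoxc10 library made with the AbCam antibody ab153904, and 1 Hoxc10 library made with a Santa Cruz antibody, which was not analysed here. With 1 sample a group no test between conditions was possible, and none was run. CD1 mice are an outbred stock, and a whole bud mixes mesenchyme with ectoderm, blood vessels and blood, so that the cells behind a site are not known. The labelled tissue was not checked by markers, because peak lists hold no expression levels.

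The deposited lists give peak summits, the base of highest enrichment in each peak, with a MACS2 score on a −log10 scale. The Tbx4 list holds 4780 summits with scores of 1.34 to 317.1, and the shorter Hoxc10 list has scores of 1.40 to 237.9. Both hold a part of the peaks that were numbered, and how they were chosen is not given in the labels, so that a gene without a summit is a gene without a listed summit and not one shown to be unbound. The name of the Hoxc10 list carries an abbreviation that may stand for a limit to sites near those of the Santa Cruz antibody. Scores were compared within a list only, and depth is unknown. Genes were placed with the RefSeq gene table of GRCm38.p6, which is the build mm10. Strand was taken from the RefSeq promoter table, which holds 64 of the 84 genes.

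Tbx4 summits were found within 1 kb of an annotated end of 11 ribosomal protein genes. Of the 9 such genes with known strand, 7 had the summit within 1 kb of the 3′ end and 2 at the 5′ end. Of the 7, 6 had it past the 3′ end, and 3 of these summits lay nearer to the start of a neighbouring gene. None of the 84 genes had a Hoxc10 summit in the gene or within 5 kb of it. The 11 genes make up 13.1% of the members (exact 95% binomial interval 6.72 to 22.2%, counting error only), where the share over all protein-coding genes was 3.29%. Ribosomal protein genes are short, with a median length of 3179 bp against 17273 bp for the other genes. Other genes of like length, weighted in 20 length bins, gave 3.60%, which corresponds to 3.02 of 84 genes. For a Hoxc10 summit in the gene or within 5 kb they gave 0.776%, or 0.652 of 84 genes.

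The promoters of 3 of these genes are shown, because Rpl27 and Rpl28 are the members with a summit at the 5′ end and Rps18 is among the highest-scoring members with the summit at the other end. Rpl27 and Rpl28 encode proteins of the large subunit, and Rps18 encodes a protein of the head of the small subunit. Each line gives the 250 bases before the annotated start, 5′ to 3′ on the strand of the gene, from RefSeq on GRCm38.p6. They lie at chr11:101441995-101442244 on the plus strand for Rpl27, at chr7:4792715-4792964 on the plus strand for Rpl28, and at chr17:33955666-33955915 on the minus strand for Rps18. Capitals mark AGGTGT, the core of the T-box half-site, and CGGAAG or its complement CTTCCG, the core of sites for Ets factors.
Rpl27: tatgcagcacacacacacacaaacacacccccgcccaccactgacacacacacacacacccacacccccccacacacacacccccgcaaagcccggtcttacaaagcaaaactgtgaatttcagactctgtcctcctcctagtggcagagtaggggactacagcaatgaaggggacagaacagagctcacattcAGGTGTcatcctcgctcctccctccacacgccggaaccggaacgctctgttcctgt
Rpl28: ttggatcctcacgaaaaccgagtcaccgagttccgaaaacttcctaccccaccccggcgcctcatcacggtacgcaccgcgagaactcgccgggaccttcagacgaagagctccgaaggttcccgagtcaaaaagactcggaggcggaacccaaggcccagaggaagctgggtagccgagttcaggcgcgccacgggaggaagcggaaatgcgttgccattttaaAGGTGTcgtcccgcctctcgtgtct
Rps18: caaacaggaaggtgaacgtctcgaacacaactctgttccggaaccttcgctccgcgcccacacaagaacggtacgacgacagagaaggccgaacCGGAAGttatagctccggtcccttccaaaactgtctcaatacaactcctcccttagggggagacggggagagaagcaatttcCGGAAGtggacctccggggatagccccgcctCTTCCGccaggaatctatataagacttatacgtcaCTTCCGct

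The Tbx4 summit of Rpl27, at 101442314 of chromosome 11, lay 69 bp past the start of the gene and so just beyond the sequence shown. It had a score of 11.3, the highest at any ribosomal protein gene, and 13.3% of the Tbx4 list scored as high or higher. The summit of Rpl28, at 4792926 of chromosome 7, lay 39 bp before the start and scored 4.46. The marked AGGTGT ends 51 bp before the start in Rpl27. In Rpl28 it begins 25 bp before the start, and the summit lies 14 bp upstream of its first base. In the sequence of Rps18, 4 CGGAAG cores stand within 156 bp of the start, while its Tbx4 summit lay at the far end of the gene.

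The AGGTGT core was added after the values were seen. It was present in a promoter window of both members with a summit within 1 kb of the 5′ end and of 8 of the 62 members without one. Among the other genes with strand, 65 of 436 with such a summit had it (14.9%), and so did 2496 of 16992 without one (14.7%). Over the genome the core was thus about as frequent in promoter windows of genes with a Tbx4 summit within 1 kb of the 5′ end as of those without. A summit within 1 kb of a start can lie outside the window searched. These shares therefore do not describe the sequence under the summits. The fuller T-box motifs AGGTGTGA and GGTGTGA, searched on both strands, were in 0 of the 76 promoter windows of members, each from 250 bases before to 50 after a start, and in 1.15% and 3.68% of all 21263 windows of protein-coding genes. The second motif is part of the first. No match says only that these letters are not in these windows.

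The 3′ ends carried the larger number of sites. Rpl5 and Rpl11 encode the proteins that join the ribosome with 5S ribosomal RNA and that, outside the ribosome, bind the p53 regulator Mdm2. At Rpl5 the summit lay at 107909881 of chromosome 5, 876 bp past the 3′ end, with a score of 4.46. At Rpl11 it lay at 136048397 of chromosome 4, 957 bp past the 3′ end, with a score of 3.67. No other protein-coding gene had an end within 1 kb of either summit. The same held at Rpl22, which encodes an RNA-binding protein of the large subunit, with a summit of 2.26 at 152334570 of chromosome 4, 488 bp past its 3′ end.

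At the other 4 genes a neighbour came close. Rps18 had its summit at 33951223 of chromosome 17, with a score of 5.3, 775 bp past its 3′ end and 265 bp from the start of B3galt4, a galactosyltransferase gene. Rpl7l1, a paralogue of Rpl7, had one of 5.3 at 46772943 of chromosome 17, 964 bp past its 3′ end and 308 bp from the start of 2310039H08Rik. Rpl4, whose protein lines the tunnel through which new protein leaves the ribosome, had one of 2.26 at 64179368 of chromosome 9, 806 bp past the 3′ end and 71 bp from the start of Snapc5, a subunit of the complex that activates small nuclear RNA genes. These 3 summits lay nearer to the start of the neighbour than to the ribosomal protein gene. Rpl10a, whose protein forms the mobile stalk beside the exit site, had a summit of 1.63 at 28330906 of chromosome 17, inside the gene and 127 bp before its 3′ end, with the 3′ end of Tead3, a TEAD transcription factor gene, 765 bp away.

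For Rps20, of the small subunit, the promoter table holds no entry, so that start and end could not be told apart. It had a summit of 2.26, 82 bp outside its upper coordinate end on chromosome 4. In all, 12 summits lay at the 11 genes, and 7 of them had no end of another protein-coding gene within 1 kb. Just inside the 1 kb limit were Rpl7l1 and Rpl11, at 964 and 957 bp, and just outside it were Rpsa and Rps9, at 1277 and 1351 bp.

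**Figure D1:**
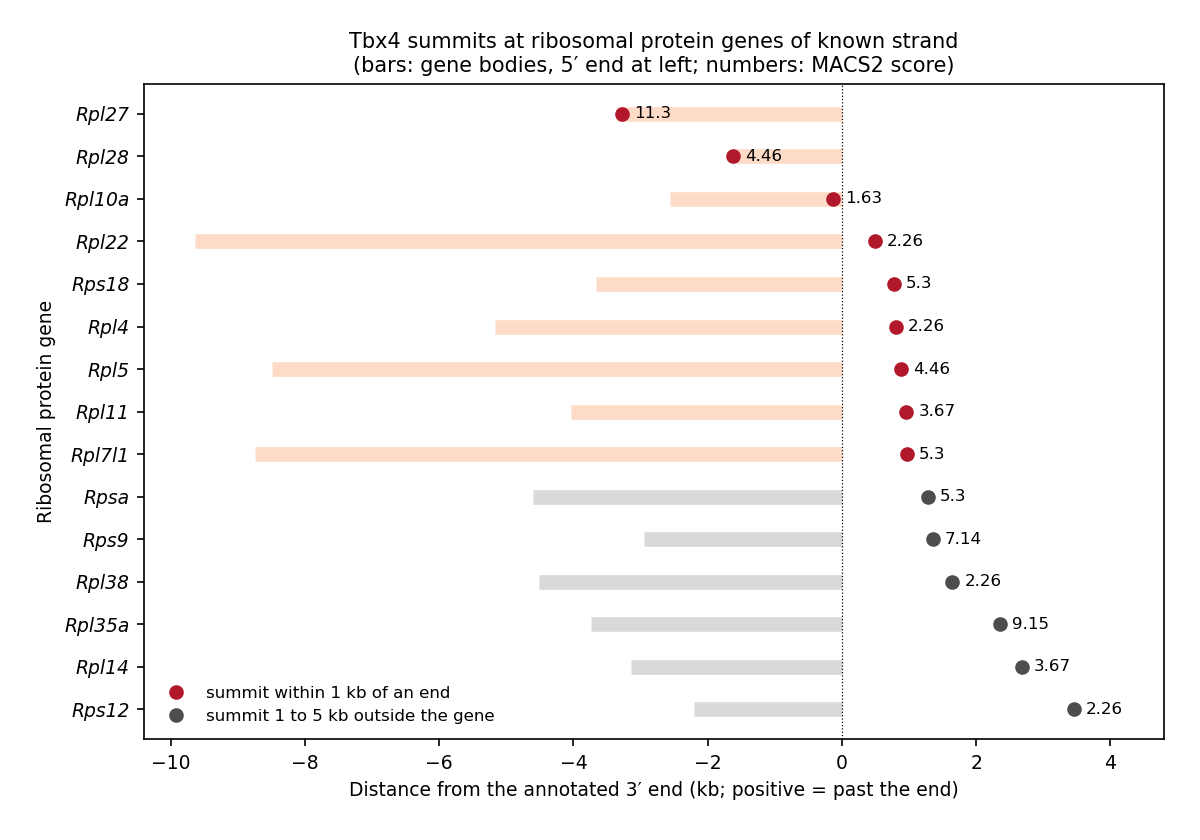
Map of Tbx4 summits within 5 kb of the ribosomal protein genes of known strand. The x axis is the distance from the annotated 3′ end in kb, horizontal bars are gene bodies with the 5′ end at left, points are summits and the numbers beside them MACS2 scores. Summits of Rpl27 and Rpl28 sit at the 5′ end, that of Rpl10a just before the 3′ end, and the other 12 lie past it.

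Sites past the 3′ end continued beyond 1 kb. A further 10 members, named after their values were seen, each had 1 summit between 1 and 5 kb outside the gene. Of the 6 with known strand all had it past the 3′ end and 0 before the 5′ end. Rpsa, a small subunit protein also known as the laminin receptor, had a summit of 5.3 at 1277 bp, and Rps9 one of 7.14 at 1351 bp. Rpl38, which in mice is needed for the translation of a set of Hox mRNAs and for normal axial patterning, had one of 2.26 at 1647 bp. The summit of Rpl35a scored 9.15 and lay 2359 bp past the 3′ end, but 678 bp from the start of Lmln. Rpl14 had one of 3.67 at 2684 bp and Rps12 one of 2.26 at 3456 bp. Rpl32, Rps14 and Rpl17, whose strand the table does not give, had summits of 1.63, 2.26 and 3.67. That of Rpl17 lay 2515 bp from the gene but 57 bp from an end of another protein-coding gene. With the 11 genes above, 21 of 84 members, or 25.0% (exact 95% interval 16.2 to 35.6%), had a Tbx4 summit in the gene or within 5 kb, against 10.8% of all genes and 6.34% of other genes of like length.

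The flanks of the 64 genes with strand were not alike. In the 5 kb past the 3′ end 12 of them had a Tbx4 summit, or 18.8% (10.1 to 30.5%), where the share over all 17492 genes with strand was 2.28%. Other genes of like length gave 2.11%, or 1.35 genes. In the 5 kb before the 5′ end 1 of 64 had one, or 1.56% (0.0396 to 8.40%), against 1.78% over all genes and 2.16% of other genes of like length. The step nearest to the 3′ end, up to 1 kb, held a summit in 6 members (9.38%), the next steps of 1 kb in 3, 2 and 1, and the step from 4 to 5 kb in 0. The other genes had 0.666% in the nearest step and 0.298% in the farthest. Past the 3′ end the share of the members was thus above that of genes of like length, and before the 5′ end it was not. The intervals cover counting of genes in 1 library and are not a test. These flanks by side were not set out beforehand.

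**Figure D2:**
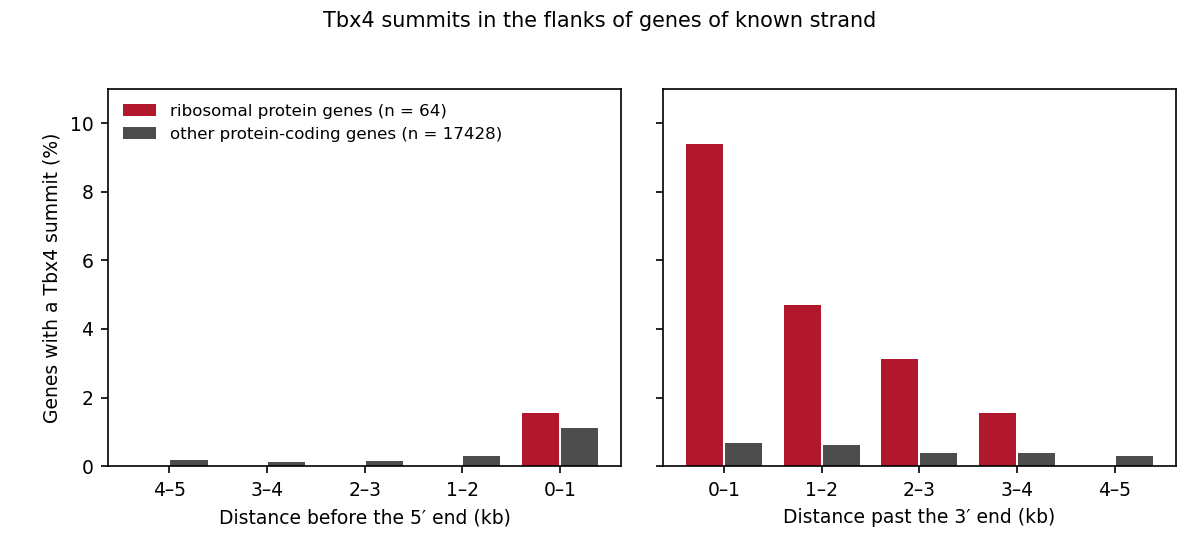
Share of genes with a Tbx4 summit in each 1 kb step before the 5′ end (left) and past the 3′ end (right), for 64 ribosomal protein genes and 17428 other protein-coding genes with strand in the promoter table. The y axis is the percentage of genes. The members' bars are tallest at 9.38% in the first kb past the 3′ end and come to 0 by the fifth, while before the 5′ end only the nearest step holds a member.

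Counted in windows of 1 kb to each side of an end, 7 of 64 members had a summit at the 3′ end, or 10.9% (4.51 to 21.2%), against 0.943% of all genes with strand and 0.826% of other genes of like length. With a window of 500 bp 2 of 64 remained, or 3.12% (0.381 to 10.8%), an interval that holds the 0.416% of other genes of like length. At the 5′ end, with 1 kb, 2 of 64 had one, or 3.12% (0.381 to 10.8%), against 2.50% and 2.84%. The 5′ share of the members therefore lay close to that of all genes. Among the other genes with a summit at either end, 158 of 566 had it at the 3′ end (27.9%), compared with 7 of 9 members (77.8%, 40.0 to 97.2%). A neighbour's start within 1 kb of the same summit was found for 3 of the 7 members and for 52 of the 158 other genes (32.9%). No end of another protein-coding gene was near for 3 of 7 members and for 70 of 158 other genes (44.3%). Of the members, 35.7% had an end of another protein-coding gene within 1 kb of one of their own ends. Of the other genes, not matched in length, 24.7% had one.

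Only Rpl27 and Rpl10a had a Tbx4 summit inside the gene, and both lay within 1 kb of an end. A Tbx4 summit over 1 kb from both ends was found in 0 of 84 members, which allows a share of up to 3.57%, while 5.88% of all genes had one. Genes as short as these leave little room for such a site, and other genes of like length had one in 0.632%, or 0.531 of 84 genes. Small nucleolar RNA genes, which many ribosomal protein genes carry in their introns, lay inside 30 of the 84 members and inside 4 of the 11 with a Tbx4 summit at an end.

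The members with a summit at an end were mostly genes of the large subunit. It was 9 of 52 large subunit genes, or 17.3% (8.23 to 30.3%), and 2 of 32 small subunit genes, or 6.25% (0.766 to 20.8%), and the intervals overlap. With a window of 2 kb the shares were closer, at 11 of 52 large (21.2%) and 6 of 32 small subunit genes (18.8%). They were also closer in the 5 kb past the 3′ end, with 8 of 40 large and 4 of 24 small subunit genes of known strand. The 11 genes had a median length of 4040 bp, against 3139 bp for the 73 members without a summit at an end. The 4 members on chromosome X had none, and the whole Tbx4 list holds 13 summits on that chromosome.

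The scores were low. The 12 summits had a median score of 3.3, with quartiles of 2.26 and 4.67 and a highest value of 11.3. The 602 Tbx4 summits at ends of other genes only had a median of 2.94 (quartiles 2.26 and 4.46, highest 65.28), and the whole list 3.67 (2.94 and 7.14). Of the 12 summits 5 scored above the median of the list, 1 at it and 6 below. Scores at ribosomal protein genes were thus in the range of other gene ends. They come in steps, and 16.1% of all Tbx4 summits share the value of 2.26 found at Rpl4, Rpl22 and Rps20. Of the list, 93.9% scored 2.26 or higher, and 99.9% scored as high as the 1.63 of Rpl10a or higher.

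**Figure D3:**
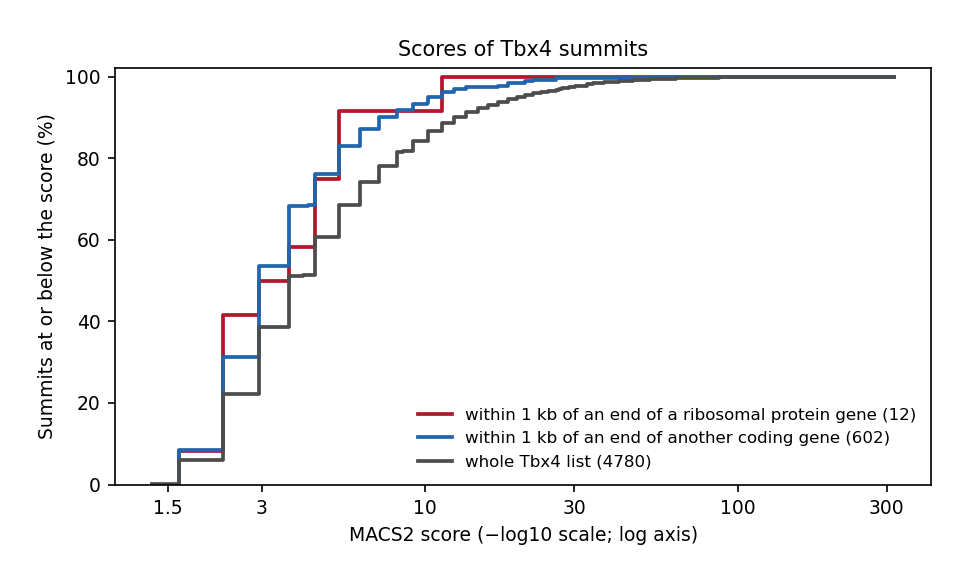
Cumulative distribution of MACS2 scores (x axis, log scale) for the 12 Tbx4 summits at ends of ribosomal protein genes, the 602 at ends of other protein-coding genes and all 4780. The y axis is the percentage of summits at or below a score. The curves of the 2 gene end sets run close together and end at 11.3 and 65.28, while the whole list reaches 317.1.

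The share of members with a site was smaller at higher score limits. Among the 2336 Tbx4 summits above the median score, 5 of 84 members kept one at an end, or 5.95%, against 1.45% of other genes of like length. Among as many of the highest Tbx4 summits as the Hoxc10 list holds, 1 member remained, Rpl27, or 1.19% against 0.990%. That limit falls within the 371 summits of score 5.3, where Rps18 and Rpl7l1 stand. Summits of equal score were taken in order of chromosome and position, and those of Rps18 and Rpl7l1 fell outside. The count of 1 therefore depends on this order and not on score alone. Leaving out every summit near an end of a second protein-coding gene left 7 members, or 8.33%, against 1.79%.

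Hoxc10 was not found at any ribosomal protein gene. A summit within 1 kb of an end was present at 0 of 84 members, which allows a share of up to 3.57%, and 0.407% of all genes had one. For other genes of like length the share was 0.289%, or 0.243 of 84 genes, so that a count of 0 does not set the members apart. Hoxc10 summits elsewhere in the gene were found in 0 members and in 2.02% of all genes. Other genes of like length gave 0.116%, or 0.0977 of 84 genes. Within 5 kb of the gene or in it the counts were 0 members and 2.64% of all genes. There other genes of like length gave 0.776%, or 0.652 of 84 genes, so that these counts of 0 do not set the members apart either. The nearest Hoxc10 summit to any member lay 25494 bp from Rpl10l, a paralogue known from the testis. The median distance was 833091.5 bp for members and 906525 bp for other genes.

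No co-bound pair was therefore present. Of the 12 Tbx4 summits at members 0 had a Hoxc10 summit within 200 bp, and 0 within 1000 bp. The nearest was 91185 bp away, at Rpl5, and the farthest 3379721 bp, at Rps20. Co-bound pairs were few at gene ends in general, with 8 of the 602 Tbx4 summits at other gene ends (1.33%), against 10.9% of the whole list.

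Other families of translation and basic cell function were set beside the members, chosen by symbol. In 9 families of 373 genes, 20 had a Tbx4 summit within 1 kb of an end (5.36%), and none had a Hoxc10 summit there. Genes with symbols that begin with Eif or Eef and a number are called initiation and elongation factors here. Not all of them need start or extend protein synthesis. These genes had 7 of 71 (9.86%, 4.06 to 19.3%), against 3.51% of other genes of like length. Mitochondrial ribosomal proteins had 7 of 78 (8.97%, 3.68 to 17.6%), against 3.67%. These intervals overlap that of the cytosolic ribosomal protein genes.

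The remaining families are small or had shares near or below those of other genes of like length. Genes of small nuclear and Sm proteins had 2 of 25 (exact 95% interval 0.984 to 26.0%), against 3.68%, and aminoacyl-tRNA synthetases 1 of 17 (5.88%, 0.149 to 28.7%), against 3.22%. Factors of nucleolar ribosome assembly had 1 of 30 (3.33%), against 3.43%, and respiratory chain genes 2 of 101 (1.98%), against 3.60%. Proteasome subunits had 0 of 40, where like length gave 1.48 genes, and the cytosolic chaperonin 0 of 9, where it gave 0.334. The 5 kb past the 3′ end held a Tbx4 summit at 4 of 55 initiation and elongation factors (7.27%) and 4 of 69 mitochondrial ribosomal protein genes (5.80%). It held one at 3 of 82 respiratory chain genes (3.66%), against 12 of 64 members (18.8%). The share over all genes with strand was 2.28%, and these families lay above it on counts of only 3 or 4 genes. The same flank held a summit at 0 of 33 proteasome subunit genes and 0 of 23 genes of nucleolar ribosome assembly. It held one at 0 of 20 genes of small nuclear and Sm proteins, 0 of 10 synthetases and 0 of 8 chaperonin genes. Intervals and like-length shares were not computed for the flanks of the families.

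Single sites of these families were chosen after their values were seen. Unlike for the members, ends of neighbouring genes are not given for them, so that a site may lie nearer to another gene. The mitochondrial ribosomal protein genes had summits at the 5′ end of 4 genes and at the 3′ end of 1, Mrpl58, with scores of 6.19 and 2.94 at 121 and 752 bp past the end. Summits stood 35 bp before the start of Mrpl27 (2.94) and 61 bp before that of Mrpl12 (5.3). The translation factors with strand had summits at the 5′ end of 3 genes and at the 3′ end of 2. At the 3′ end, Eif4a1, the helicase of initiation, had one of 2.94 at 869 bp past it. Eif4g1, the scaffold of initiation, had one of 8.12 at 490 bp past its 3′ end. Of the 3 genes with a summit at the 5′ end, Eef1a1, the main elongation factor, had one of 2.26 at 139 bp past its start.

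**Figure D4:**
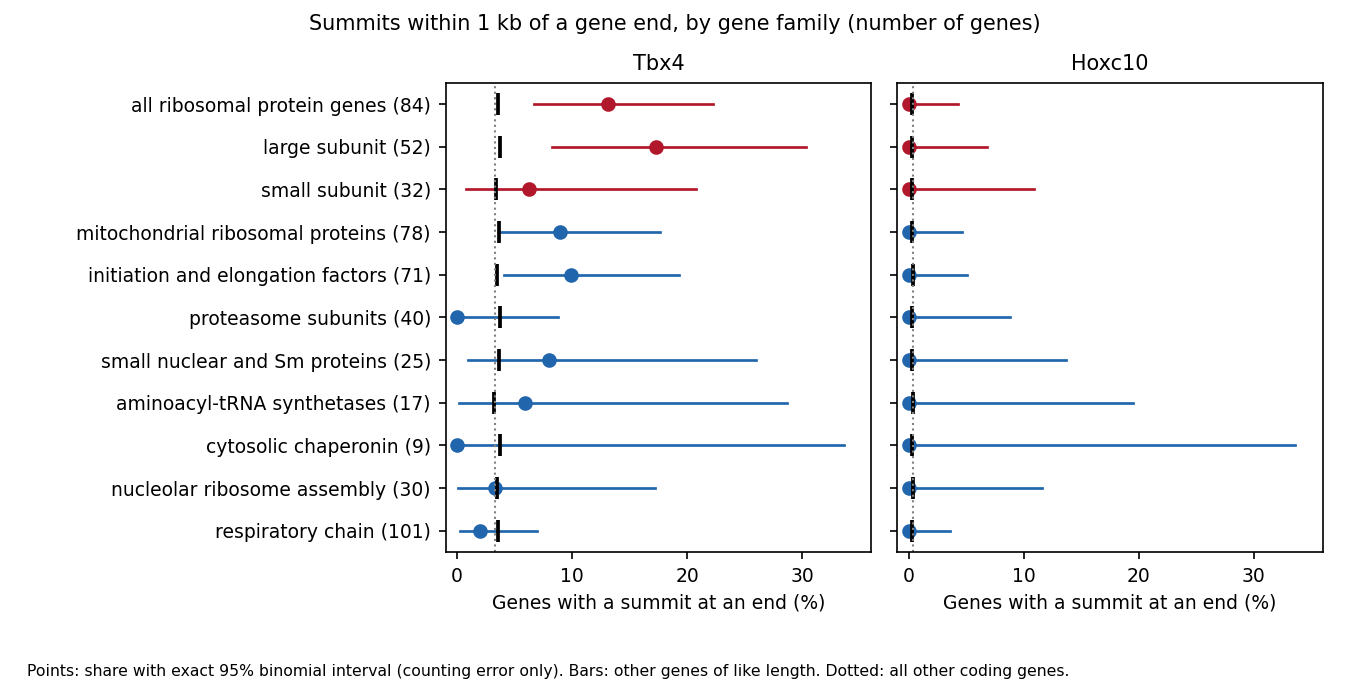
Share of genes with a Tbx4 (left) or Hoxc10 (right) summit within 1 kb of an end, with exact 95% binomial intervals for counting error. Black bars mark other genes of like length and the dotted line all other protein-coding genes. The 84 ribosomal protein genes stand at 13.1% for Tbx4 and at 0 for Hoxc10.

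Short motifs were also counted in the promoters of the members, and the choice by symbol did not use them. The Ets core CGGAAG, on either strand, was in 59.2% of 76 member windows and in 21.1% of all 21263, and the longer CCGGAAG, which contains it, in 35.5% and 11.6%. The Yy1 motif AAGATGGC was in 10.5% and 3.05%, in windows of 6 of the 64 genes. Smaller contrasts were seen for the Sp1 motif GGGCGG, in 59.2% and 46.2%, and for CACGTG, in 10.5% and 7.84%. The motif TGACGTCA was in 6.58% and 2.23%, and the NRF1 motif in 2.63% and 1.33%. A run of 5 or more C or T from the base at the start, as in mRNAs with a pyrimidine tract, was present in 17 of the 64 genes, among them Rpl28 and Rps18, with 22.4% of member windows and 3.86% of all. The Hox motif TTTATG was in 2.63% and 9.71%, and TTTATTG in 1.32% and 3.85%. These matches describe the windows and do not mark sites of binding.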

How the data were processed

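Binding was measured by ChIP-seq in 3 labelled samples, of which 2 have a list used here. Bowtie2 2.2.6, MACS2 2.1.1.20160309 and HOMER are named with the build mm10, per the submitters' processing notes. The authors deposited summits of 1 bp with a score that is a −log10 of a p-value or q-value; the sources used here do not say which, nor name a control library, any pooling or the selection of summits. The highest peak numbers in the names, 45103 for Tbx4 and 4026 for Hoxc10, exceed the list lengths. Read depth is unknown, so intervals cover counting of genes only.

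Summits were assigned with Python 3.11.15, pandas 2.3.3 and scipy 1.17.1 to protein-coding genes of GRCm38.p6, within 1 kb of either gene end or elsewhere in the gene. A start or 3′ end was known only for genes in the RefSeq promoter table. Like-length shares weight the share of the other genes in each of 20 length bins by the number of members in it, with no random draws. Intervals are exact (Clopper-Pearson, 95%), and a count of 0 was read against 3 counts. The counting was tested on simulated data. Named are all members with a summit within 1 kb of an end or in the gene, the neighbours at those summits, and genes said to be chosen after their values were seen. The members and lists were chosen with earlier results of these data known. Alternatives were other windows, score limits, gene sets and length matching. Some genes that the rule would name are not reported here by name, while the counts include them.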

Additional observations from a re-analysis of the deposited data

How the results depend on the processing

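The share of ribosomal protein genes with a Tbx4 summit at an end depended on the window and the score limit. It was 25.0% with 5 kb (6.33% of like-length genes), 5.95% in the higher-scoring 50% (1.45%), 1.19% with as many of the highest summits as the Hoxc10 list holds (0.990%) and 3.12% at starts only (2.84%), beside 13.1% (3.60%). The members had 7.14% with 500 bp (6 of 84 genes, against 2.78%) and 20.2% with 2 kb (4.79%). They had 16.7% among genes with a near coding neighbour (5 of 30 genes, against 8.89%). Without summits at a second gene they had 8.33% (1.79%). Intervals are not given for these settings, and the counts are small. At the 3′ end the share was 3.12% with 500 bp (0.416%) and 17.2% with 2 kb (2.05%), 4.69% in the higher-scoring 50% (0.370%) and 4.69% without summits at a second gene (0.316%), beside 10.9% (0.826%). In the 5 kb past the 3′ end it was 9.38% in the higher-scoring 50% (0.823%), 14.1% without summits at a second gene (1.48%) and 7.81% for summits over 1 kb from any end (0.709%), beside 18.8% (2.11%). Large subunit genes had 7.69% and the 9 families 1.61% in the higher-scoring 50%. For sites elsewhere in the gene the members stayed at 0 under every alternative run, and the like-length share for Tbx4 moved to 0.205% in the higher-scoring 50%, 0.123% with that number of highest summits and 0.993% with a near neighbour, and for Hoxc10 to 0 with a near neighbour. Hoxc10 stayed at 0 members in every setting, with a like-length share at ends of 0.496% with 2 kb and 0.775% with 5 kb. Removing paralogues or chromosomes X and Y, and other length matching, moved no share beyond its interval. The alternatives at the 3′ end and without summits at a second gene were chosen after seeing the data. At the limit set by the length of the Hoxc10 list, summits of equal score were taken in order of chromosome and position. The cause of these moves was not tested beyond their construction. No paired analysis was possible because each group has 1 sample and no test was run. Depth is unknown.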

Other observations

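Processed copies of ribosomal protein mRNAs are scattered through the mouse genome as pseudogenes. Of 318 annotated pseudogenes named after a ribosomal protein gene, 0 had a Tbx4 summit inside or within 1 kb, which allows a share of up to 0.943%, and 1 had a Hoxc10 summit, Rps12-ps15. Other pseudogenes had a Tbx4 summit in 0.495% of 10111 cases and a Hoxc10 summit in 0.0989%. Counts this small do not set the ribosomal protein pseudogenes apart from the others. Among summits near ends of other genes, those at a 5′ end and at no 3′ end (339) and those at a 3′ end and at no 5′ end (97) both had a median Tbx4 score of 2.94, with highest scores of 65.28 and 22.2.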
